A study of Mus musculus with 3 samples.

Results

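Transcript levels of 10 genes for adhesive and matricellular proteins of the extracellular matrix were read from RNA-seq of wounded mouse fibroblasts. The genes were *Fn1* (fibronectin), *Tnc* and *Tnxb* (tenascin-C and tenascin-X), *Thbs1*, *Thbs2*, *Thbs3* and *Thbs4* (thrombospondins), *Sparc*, *Postn* (periostin) and *Spp1* (osteopontin). They were found by gene name, 10 of 10, among the 43472 rows of the deposited table. The cells were primary fibroblasts isolated from the tail tip of adult C57BL/6 mice by collagenase digestion, so that a culture can hold every cell type of the tail that attaches and grows. They had been scratched with a pipette tip and then exposed for 5 h to the soluble micrograft (MG), a cell-depleted extract of mouse skin, in growth medium with serum. PD0325901 (1 μM), which inhibits MEK and so blocks activation of ERK, was given along with MG in all 3 libraries, labelled replicates 1, 2 and 3. The sex and exact age of the mice, and whether the replicates came from different mice, are not given in the sources used here. Samples without MG or without the inhibitor were not analysed here, so what follows describes levels and their spread between replicates within 1 condition, and no effect of MG or of PD0325901.

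Fibronectin is a large dimeric glycoprotein that cells assemble into fibrils through integrins and over which fibroblasts migrate during wound repair. Matricellular proteins are secreted into the matrix but serve less as scaffold than as modulators of adhesion, growth factor activity and collagen assembly, and several of them are known for transient expression in healing skin. Tenascin-C, thrombospondin-1, periostin, osteopontin and SPARC are classed among them, and many of their effects run through integrins, CD44, CD47 and syndecans.

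Upstream sequences are shown for 3 of the genes. *Postn* had the widest range over the libraries, *Spp1* had the widest range among the abundant genes, and *Tnxb* was the gene whose window held a word for AP-1, the transcription factor the study is about. RefSeq start sites on GRCm38.p6 were available for 8 of the 10 genes, with 11 start sites in all, and the windows searched ran from 250 bases before the start to 50 after it. The 250 bases before the start are printed 5′ to 3′ on the coding strand, with the AP-1 word and the TATA box word, spelled out after the sequences and searched on both strands, in capitals. The *Tnxb* window is chr17:34670285-34670534 (plus strand), the *Postn* window, for the second of its start sites listed, is chr3:54360857-54361106 (plus strand), and the *Spp1* window, for the first of its start sites, is chr5:104434861-104435110 (plus strand).
Tnxb: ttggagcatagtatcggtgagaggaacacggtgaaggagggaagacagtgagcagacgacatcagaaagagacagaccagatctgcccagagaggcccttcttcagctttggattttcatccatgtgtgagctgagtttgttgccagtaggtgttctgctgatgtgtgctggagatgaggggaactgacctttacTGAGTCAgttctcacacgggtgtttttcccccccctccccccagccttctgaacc
Postn: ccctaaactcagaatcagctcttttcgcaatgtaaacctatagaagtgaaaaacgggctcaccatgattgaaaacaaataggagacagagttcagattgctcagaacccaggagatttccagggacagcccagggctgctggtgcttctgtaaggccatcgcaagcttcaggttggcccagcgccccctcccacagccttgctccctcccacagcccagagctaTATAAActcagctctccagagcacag
Spp1: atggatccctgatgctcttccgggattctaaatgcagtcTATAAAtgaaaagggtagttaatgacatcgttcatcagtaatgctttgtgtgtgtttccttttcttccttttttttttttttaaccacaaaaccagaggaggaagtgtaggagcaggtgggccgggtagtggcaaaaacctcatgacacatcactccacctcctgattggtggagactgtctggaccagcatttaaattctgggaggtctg

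The AP-1 word, TGANTCA, occurred in 1 of the 11 windows, that of *Tnxb*, as TGAGTCA beginning 55 bases before the start. Over all 32851 promoters of the same length, 7.81% held it. The TATA box word, TATAAA, began 26 bases before the second *Postn* start and 211 bases before the first *Spp1* start. It was also in the windows of *Tnc* and *Thbs2*, further than 100 bases from the start, and 13.6% of all promoters held it. The word TGACGTCA, a cyclic AMP response element, was in none of the 11 windows and in 1.79% of all promoters. These are matches of letters in a short window and were not tested as binding sites.

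All 10 genes were detected, meaning at least 10 normalized counts in every library, and were among 12204 such genes of the table. The normalized count is the number of reads on a gene divided by the size factor of its library. To set the levels of the 10 genes against each other they were divided by exonic length in kb, since long transcripts collect more reads. On that scale *Sparc* was highest, with 38658, 34842 and 45472 normalized counts per kb in the order of the replicates and a mean of 39658 ± 5385 (SD, n = 3). *Thbs1* followed with a mean level of 26208 ± 4531 normalized counts per kb, then *Spp1* with 19776 ± 14475, *Fn1* with 13896 ± 5266 and *Tnc* with 5457 ± 1264 (SD, n = 3). The mean level per kb of *Thbs2* was 1025 ± 777, of *Thbs4* 541 ± 375, of *Postn* 89.2 ± 97.8, of *Thbs3* 87.2 ± 39.5 and of *Tnxb* 21.5 ± 15.8 normalized counts per kb (SD, n = 3). The highest mean level per kb was 1843-fold above the lowest. For description, the highest 5 are called the abundant set and the other 5 the lower set. In every library the lowest of the abundant set, *Tnc*, stood between 3.52-fold and 9.67-fold above *Thbs2* per kb. By exonic length this was not the largest step, since the mean of *Thbs4* was 6.07-fold above that of *Postn* and the mean of *Tnc* 5.32-fold above that of *Thbs2*. The order of these 2 steps depended on the length used. Per kb of the longest coding transcript the means were 557 for *Thbs4* and 242 for *Postn*, a smaller step than between *Tnc* (5969) and *Thbs2* (1218).

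**Figure D1:**
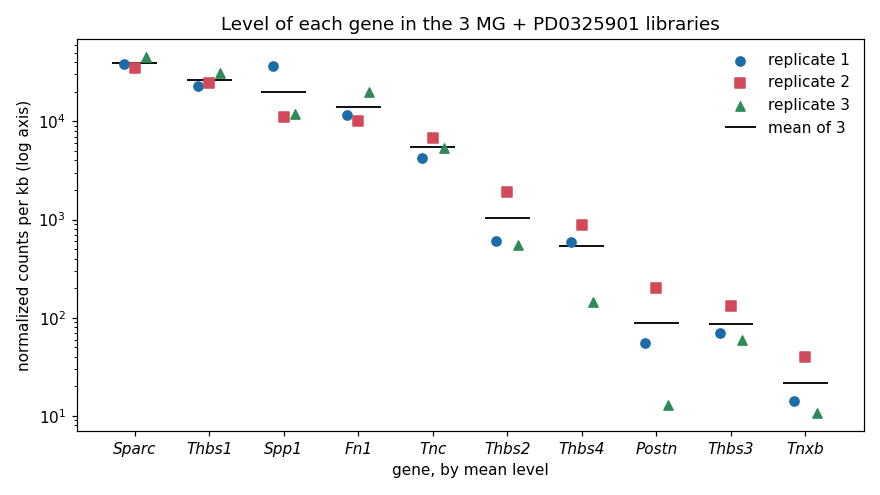
Each point is the level of 1 gene in 1 library, in normalized counts per kb of exonic length on a log axis, with genes ordered by the mean of the 3 MG + PD0325901 libraries (black lines). *Sparc* is at 34842 or more in every library and *Tnxb* at 39.6 or less, and the points of *Postn* spread the furthest, from 12.8 to 199.

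Not every step in this order was larger than the spread between replicates. The ranges of neighbours did not overlap for *Sparc* and *Thbs1*, *Fn1* and *Tnc*, *Tnc* and *Thbs2*, and *Thbs3* and *Tnxb*. *Spp1* lay above *Thbs1* in replicate 1 and below it in the others, and it lay below *Fn1* in replicate 3, so the place of *Spp1* was not fixed. *Thbs1* stood above *Fn1* per kb in 3 of 3 libraries, by 1.95-fold, 2.43-fold and 1.57-fold. *Thbs2* and *Thbs4* had overlapping ranges, although *Thbs2* was higher in 3 of 3 libraries, by 1.01-fold, 2.17-fold and 3.89-fold per kb. *Postn* exceeded *Thbs3* per kb of exonic length in replicate 2 alone. Per kb of the longest coding transcript the mean of *Postn* was 242 and that of *Thbs3* 132. The closeness of these 2 genes thus depended on the length used. Among the 11639 detected genes with an exonic length, the mean per kb of *Sparc* ranked 11, that of *Thbs1* 18, *Spp1* 27, *Fn1* 39 and *Tnc* 151.

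These genes took a measurable share of each library. The 10 together held 2.66%, 2.57% and 3.24% of all reads on genes in replicates 1, 2 and 3, and *Fn1*, *Thbs1* and *Sparc* alone held 2.15%, 2.10% and 2.91%.

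*Fn1* (ENSMUSG00000026193.15, chromosome 1, 71585520 to 71653200, minus strand, GRCm38) encodes the main adhesive glycoprotein of the fibroblast matrix. It stood at 136151, 118311 and 232677 normalized counts in the order of the replicates, averaging 162379.7 ± 61529 (SD, n = 3). Replicate 3 was the highest, 1.71-fold above replicate 1, and replicates 1 and 2 lay within 1.15-fold of each other. The 1.97-fold range was just under the 2-fold limit used here for a wide spread. Counting error was at most 0.253% for *Fn1*, far below this difference. The table counts reads per gene, so the alternatively spliced forms of fibronectin cannot be told apart.

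The tenascins differed from each other in level and in spread. *Tnc* (ENSMUSG00000028364.15, chromosome 4, 63959785 to 64047015, minus strand), which encodes a hexameric anti-adhesive glycoprotein of healing wounds, stood at 32925 normalized counts in replicate 1, 52545 in replicate 2 and 41774 in replicate 3. It averaged 42415 ± 9826 (SD, n = 3) and its highest library was 1.60-fold above its lowest. *Tnxb* (ENSMUSG00000033327.16, chromosome 17, 34670535 to 34719815, plus strand) encodes a tenascin of mature dermis and tendon that associates with collagen fibrils. It stood at 174, 484 and 130.4 normalized counts and averaged 263 ± 193 (SD, n = 3), with replicate 2 standing 2.78-fold above the next library. *Tnxb* rested on 200, 687 and 110 reads, and its counting error in replicate 3 was 9.53%. *Tnc* made up 99.7%, 99.4% and 99.8% of the summed level of these 2 genes per kb in replicates 1, 2 and 3. Of all stretches of 50 bases in the *Tnxb* transcripts, the length of the reads, 6.41% also occur in transcripts of the related gene *Tnxa*, and reads there would be lost where only uniquely mapping reads are kept.

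Of the 4 thrombospondin genes, *Thbs1* held nearly the whole level. *Thbs1* (ENSMUSG00000040152.8, chromosome 2, 118111876 to 118127133, plus strand), whose trimeric product binds CD47 and activates latent TGF-beta, stood at 137912 normalized counts in replicate 1, 149326 in replicate 2 and 190238 in replicate 3. It averaged 159159 ± 27514 (SD, n = 3) with a range of 1.38-fold. *Thbs2* (ENSMUSG00000023885.9, chromosome 17, 14665500 to 14694235, minus strand), the other trimeric thrombospondin and a regulator of collagen fibril assembly and of vessel growth, stood at 4191, 13460.1 and 3892 normalized counts and averaged 7181 ± 5439.9 (SD, n = 3). Replicate 2 was 3.21-fold above replicate 1 for *Thbs2*, while replicates 1 and 3 lay within 1.08-fold.

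*Thbs3* and *Thbs4* encode thrombospondins that form pentamers. *Thbs3* (ENSMUSG00000028047.11, chromosome 3, 89215180 to 89226837, plus strand) stood at 336, 638 and 287 normalized counts and averaged 420.4 ± 190.4 (SD, n = 3). *Mtx1*, on the opposite strand, shares 318 exonic bases with *Thbs3*, which is 6.59% of the exonic length of *Thbs3*, and whether the counting used strand is not given in the sources used here. *Thbs4* (ENSMUSG00000021702.7, chromosome 13, 92751590 to 92794818, minus strand), known from tendon and muscle matrix, stood at 1957, 2916 and 469 normalized counts and averaged 1781 ± 1233 (SD, n = 3). For *Thbs4* it was replicate 3 that stood apart, 4.16-fold below replicate 1 and 6.20-fold below replicate 2.

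Ratios between genes of the same library do not depend on its size factor. Per kb, *Thbs1* exceeded *Thbs2* by 37.9-fold, 12.8-fold and 56.4-fold in replicates 1, 2 and 3. *Thbs1* made up 94.7%, 89.3% and 97.6% of the summed level of the 4 thrombospondins per kb, and *Thbs2* made up 2.50%, 6.98% and 1.73%. *Thbs1* was thus the main thrombospondin in every library, and the share of *Thbs2* was largest in replicate 2.

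*Sparc* (ENSMUSG00000018593.13, chromosome 11, 55394500 to 55423183, minus strand), the gene of a collagen-binding protein also called osteonectin, was the steadiest of the 10. It stood at 146437 normalized counts in replicate 1, 131983 in replicate 2 and 172249 in replicate 3, averaging 150223 ± 20399 (SD, n = 3) with a range of 1.31-fold. Its level per kb relative to *Fn1* was 3.32-fold, 3.44-fold and 2.28-fold.

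*Postn* varied the most between replicates. *Postn* (ENSMUSG00000027750.16, chromosome 3, 54361109 to 54391037, plus strand), which encodes an integrin ligand that promotes collagen cross-linking, stood at 482 normalized counts in replicate 1, 1735 in replicate 2 and 111 in replicate 3. Its average was 776 ± 851 (SD, n = 3), with the SD above the mean. The 3 libraries were all apart from each other, with replicate 2 standing 3.59-fold above replicate 1 and replicate 1 standing 4.30-fold above replicate 3, a range of 15.4-fold. The smallest value rested on 94 reads with a counting error of 10.3%, far below these differences. Of the detected genes, 99.7% had a smaller range than *Postn*.

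*Spp1* (ENSMUSG00000029304.14, chromosome 5, 104435118 to 104441050, plus strand) encodes osteopontin, a secreted phosphoprotein that binds integrins and CD44 and is made by macrophages, bone cells and injured tissue. It stood at 60123, 18077 and 19572 normalized counts and averaged 32591 ± 23855 (SD, n = 3). Replicate 1 was 3.07-fold above replicate 3 and 3.33-fold above replicate 2, which lay within 1.08-fold of each other. *Spp1* shares 309 exonic bases, 18.8% of its exonic length, with *Gm42793* on the same strand in the GENCODE M21 annotation, and the annotation used for the counting is not given in the sources used here.

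**Figure D2:**
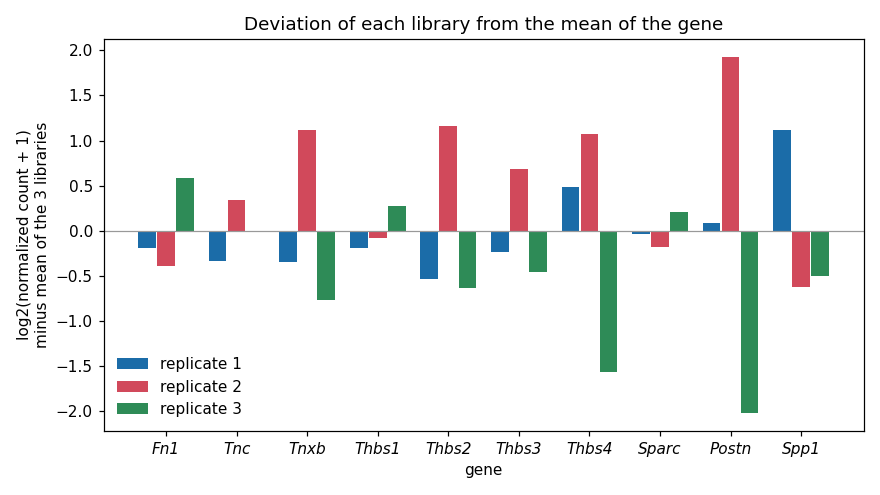
Bars show, for each gene, log2(normalized count + 1) in a library minus the mean of the 3 libraries for that gene, coloured by replicate. Replicate 2 is the highest bar for *Tnc*, *Tnxb*, *Thbs2*, *Thbs3*, *Thbs4* and *Postn*, up to 1.93 for *Postn*, whereas replicate 3 is highest for *Fn1*, *Thbs1* and *Sparc* and replicate 1 for *Spp1*.

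The genes did not share a single pattern over the libraries. Replicate 2 was the highest library for 6 of the 10 genes, against 40.6% of all 12204 detected genes, and more than 2-fold above both others for *Tnxb*, *Thbs2* and *Postn*, which was the case for 4.22% of detected genes. Replicate 3 was the lowest library for *Tnxb*, *Thbs2*, *Thbs3*, *Thbs4* and *Postn*, 5 of the 10, against 28.3% of detected genes. It was at the same time the highest for *Fn1*, *Thbs1* and *Sparc*, 3 of the 10, against 27.9%. *Spp1* was the only one of the 10 with replicate 1 highest, against 31.5%, and with replicate 1 more than 2-fold above both others, against 1.41%. The highest and the lowest library of each of the 10 genes were the same with TMM scaling and with libraries scaled to equal totals.

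A range of more than 2-fold was found for 6 of the 10 genes, *Tnxb*, *Thbs2*, *Thbs3*, *Thbs4*, *Postn* and *Spp1*, against 21.6% of all detected genes. The median range was 2.72-fold over the 10 genes and 1.49-fold over all detected genes, and the SD of log2(normalized count + 1) had a median of 0.79 against 0.30. Without replicate 2 the count was 3 of 10, *Thbs4*, *Postn* and *Spp1*, against 6.39% of detected genes. Without replicate 1 it was 5 of 10 against 12.8%, and without replicate 3 it was 4 of 10 against 15.4%. *Sparc* and *Thbs1* were in the narrower part of the transcriptome, with 28.9% and 38.3% of detected genes having a smaller range.

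**Figure D3:**
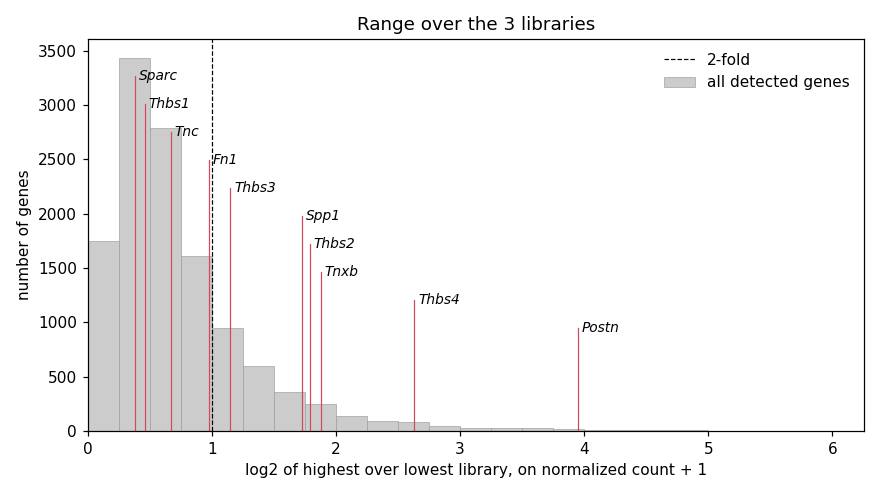
Grey bars count the 12204 detected genes by the log2 ratio of their highest to their lowest library, on normalized counts + 1. Red lines mark the 10 genes, whose line heights carry no value, and the dashed line marks 2-fold, with *Sparc* (0.38) at the low end and *Postn* (3.95) at the high end.

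Pairs of libraries were also compared on the read counts, by two-sided exact binomial tests with Benjamini-Hochberg adjustment over all genes at a threshold of 0.05. Such a test compares libraries and not conditions, and it covers counting error only. Between replicates 1 and 2, 10 of 10 genes differed, against 69.3% of 14771 genes tested. Between replicates 1 and 3 it was 10 of 10 against 52.8% of 14316 genes, and between replicates 2 and 3 it was 9 of 10 against 63.2% of 14344 genes, with *Spp1* as the exception. With TMM totals or the deposited size factors in place of the library totals, these counts were 10, 9 and 10 of the 10 genes. Where the difference also had to exceed 2-fold, 4 of 10 (*Tnxb*, *Thbs2*, *Postn* and *Spp1*) differed between replicates 1 and 2, against 20.6% of the genes tested. Under the same requirement 3 of 10 (*Thbs4*, *Postn* and *Spp1*) differed between replicates 1 and 3, against 9.70%, and 5 of 10 (*Tnxb*, *Thbs2*, *Thbs3*, *Thbs4* and *Postn*) between replicates 2 and 3, against 17.1%. For an abundant gene a small difference was already past counting error. *Thbs1* held 0.705% of the reads in replicate 1 and 0.784% in replicate 2, and these libraries lay 1.08-fold apart with the deposited size factors. *Spp1*, the exception above, held 0.0949% of the reads in replicate 2 and 0.0958% in replicate 3.

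The patterns over the 3 libraries were compared by the largest difference between centred log2 values, which is a description over 3 libraries. *Tnxb* and *Thbs2* were nearest to each other among the 10 genes, with a largest difference of 0.17, and *Sparc* and *Thbs1* likewise with 0.16. The nearest genes to *Thbs2* among the 9992 genes averaging 100 normalized counts or more were *Epha4* (0.052), *Idh2* (0.056) and *Bub1* (0.063). Those nearest to *Spp1* were *Heph* (0.070), *Shox2* (0.105) and *Ccrn4l* (0.109). Only 1 gene lay within 0.1 of *Spp1* and none within 0.1 of *Postn* or *Thbs4*, whose nearest were *Cap2* (0.284) and *Cacna1g* (0.120). The patterns of *Sparc* and *Tnc* were common, shared within 0.1 by 488 and 363 genes.

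Relatives of these genes were measured from a list of 16, of which 8 were detected and 5 of those 8 had a more than 2-fold range, against 21.6% of all detected genes. Without replicate 2 this count was 1, against 6.39%, and with a pseudocount of 10 it was 4. *Smoc1* and *Sparcl1*, which are among the 5, rested on few reads, 45, 26 and 27 and 14, 78 and 11 in replicates 1, 2 and 3. *Fstl1*, of the SPARC family, was the highest at 7084 normalized counts per kb on average, with 30179, 35046 and 39200.5 normalized counts in replicates 1, 2 and 3. *Smoc2*, another gene of that family, had 14179, 5377 and 13855 normalized counts. *Comp*, which encodes thrombospondin-5 of cartilage and tendon, had 2900.3, 387 and 3082 normalized counts. *Tgfbi*, the paralogue of periostin, had 3465, 2253 and 3323. *Smoc1* had 39.1, 18.3 and 32.0 normalized counts. These 4 relatives were lowest in replicate 2, whereas *Sparcl1*, a close relative of *Sparc*, was highest there with 55.0 normalized counts and had a 4.25-fold range. *Tnn*, the gene of tenascin-W, had 513, 357 and 158 normalized counts, while *Tnr*, the tenascin of the nervous system, had at most 2.61. *Dmp1*, a bone matrix gene of the osteopontin family, had at most 1.74, and *Mepe*, *Dspp* and *Vtn* had 0 reads in the 3 libraries, which allows up to 2.61, 2.11 and 3.56 normalized counts in replicates 1, 2 and 3 (3 reads, counting error only).

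Of 18 receptor genes 17 were detected, and 7 of those 17 had a range over 2-fold, against 21.6% of all detected genes. Without replicate 2 this count was 2, against 6.39%, and without replicate 1 it was 4, against 12.8%. With libraries scaled to equal totals it was 6. *Itgb6* and *Itgb8*, which are among the 7, rested on few reads, 57, 15 and 17 and 13, 88 and 13 in replicates 1, 2 and 3. *Calr*, which encodes calreticulin, a chaperone that also serves thrombospondin-1 at the cell surface, was the highest of the list at 13174 normalized counts per kb on average. *Itgb1* had 36264, 37118 and 42075 normalized counts and *Itga5* had 33943, 47111 and 45802 in replicates 1, 2 and 3, and together they encode the classical fibronectin receptor. *Cd44*, an osteopontin receptor, had 40677, 36683 and 50478 normalized counts, and *Cd47*, a thrombospondin-1 receptor, had 1155, 780 and 1124. *Sdc4*, a heparan sulfate co-receptor for fibronectin, was lowest in replicate 2 with 18785, 6933 and 24404, and *Sdc1* was highest there with 6006, 13261 and 6558. *Itgav* had 3947, 4693 and 6206 normalized counts, and *Itgb3*, its partner in binding osteopontin, was highest in replicate 2 with 406, 1366 and 797. *Cd36* was the undetected one, with at most 8.30 normalized counts.

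**Figure D4:**
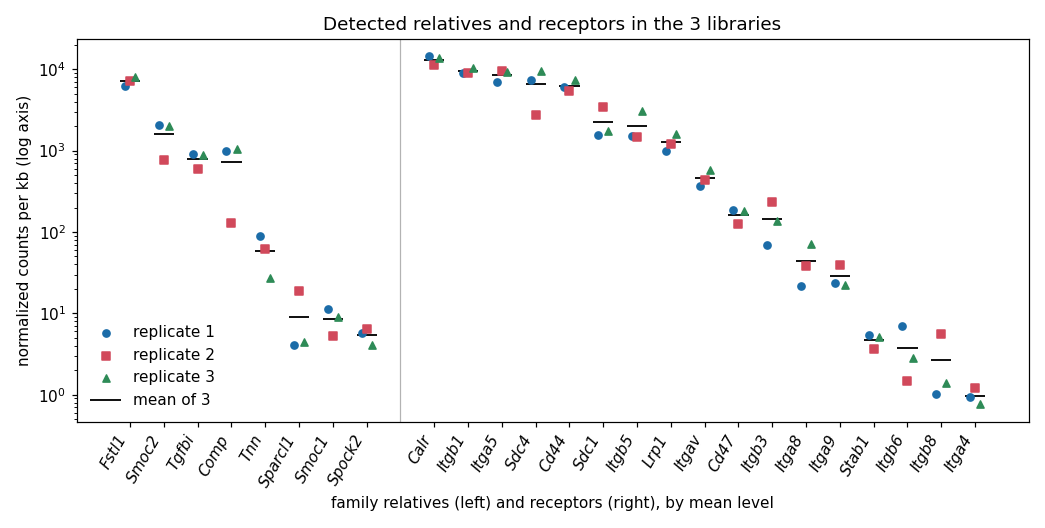
Points give the level of each detected relative (left) and receptor (right) in the 3 libraries, in normalized counts per kb of exonic length on a log axis, with black lines for the mean. *Comp* and *Sdc4* are lowest in replicate 2, whereas *Itgb1* and *Cd44* lie close together in the 3 libraries.

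Markers of the cells in the cultures were read beside these levels. Fibroblast markers were detected in 8 of 8 cases, and their library patterns differed. *Thy1* had 2031, 15760 and 1652 normalized counts, highest in replicate 2, whereas *Lum* had 5073, 289 and 1164 and *Dcn* 3661, 1723 and 3659, each lowest there. *Col1a1* had 157553, 154124 and 246175, with replicates 1 and 2 within 1.02-fold of each other. *Pdgfra* was highest in replicate 2 with 214, 306 and 259.6, and *Col1a2*, *Col3a1* and *Pdgfrb* were lowest in replicate 1. Of 9 tendon and cartilage markers 7 were detected, with summed levels of 26693, 1869 and 15801 normalized counts and *Chad* at 0. Large parts of these sums came from *Col2a1*, with 11538, 229 and 833, and *Fmod*, with 9346, 762 and 10075. *Tnmd* did not share the low sum of replicate 2, with 124, 127 and 107, and *Sox9* was lowest in replicate 3, with 171, 149 and 117. Of 6 skeletal muscle markers 2 were detected, *Acta1* and *Des*, with sums of 2641, 8494 and 5668, while *Myod1* was at 0 and *Ckm*, *Myh1* and *Myh4* had at most 2.37. *Des*, which encodes the muscle intermediate filament desmin, had 212, 1208 and 77.0 normalized counts, and *Acta1*, which encodes skeletal muscle actin, had 2429, 7286 and 5586. Both were highest in replicate 2, and *Des* was lowest in replicate 3, *Acta1* in replicate 1. Of 11 leukocyte markers found by name 3 were detected and the sums were 238, 302 and 975, highest in replicate 3, where *Lyz2* gave 601. The order of replicates 1 and 2 differed between these markers, as *Csf1r* had 57.3, 179 and 161 normalized counts and *Lyz2* had 123, 62.7 and 601, and *Tyrobp* was at 0 in replicate 1. *Tyrobp*, *Laptm5*, *Cd52*, *C1qa*, *C1qb* and *Fcer1g*, none of them detected by the limit used here, were also highest in replicate 3. *Cd68* and *Csf1r* were highest in replicate 2, and *Ptprc* and *Cd74* in replicate 1. Of 8 keratinocyte markers 2 were detected, with sums between 135 and 248 and *Krt15* and *Krt1* at 0. Of 7 endothelial markers 1 was detected, with sums of 90.3, 244 and 55.7, of which *Tek* gave 185 in replicate 2, and *Tie1* and *Emcn* were at 0. Of 6 Schwann cell markers 3 were detected, with sums between 111 and 254. The part of these cell types in the levels of the 10 genes was not tested, and in bulk RNA fewer cells of a type and less RNA per cell cannot be told apart.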

How the data were processed

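RNA-seq was analysed from 3 MG + PD0325901 libraries (5 h), grouped by sample title. The table holds 3 more sample columns that matched no sample label here, and these were left out. Per the labels and the paper's methods, the authors mapped single-end reads of 50 bp from stranded mRNA libraries onto mm10 (TopHat 2.0.13), kept unique reads, counted them per gene with HTSeq 0.5.3p3 and normalized with DESeq. The deposited signal is the normalized count, the reads of a gene divided by 1 size factor per library. Divided by the value of 1 read, 100% of the values above 0 came out whole (within 0.01 reads). The recovered reads summed to 22.5 M, 27.0 M and 17.2 M in the order of the replicates, whose size factors were 1.15, 1.42 and 0.844.

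Ranges were taken on log2(normalized count + 1). Exonic length (the union of all exons), positions and overlaps came from GENCODE M21 (GRCm38, the assembly of mm10). Exact binomial tests (two-sided) were run on the recovered reads of 2 libraries for genes that had 10 reads or more between them, with expected shares from the library totals, and called 10240, 7554 and 9069 genes between replicates 1 and 2, 1 and 3, and 2 and 3. They and the range count were run on simulated counts with known changes. Those counts carried counting error only, so the check does not cover spread between replicates. No test between conditions could be made. TMM factors came from edgeR 4.0.16 (R 4.3.3), and all else used Python 3.11.15 (numpy 2.4.6, pandas 2.3.3, scipy 1.17.1).

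The 10 genes and all lists were chosen with earlier results of these data known. Named genes were the 10, relatives and receptors with the highest levels or a more than 2-fold range, and the nearest patterns; *Tgfbi*, *Tnr*, *Dmp1*, *Cd36*, *Cd47*, *Itgav* and genes at 0 were named after their values were seen. The alternatives were other scalings, pseudocounts, minimums, fold limits and lengths and each replicate left out. Coding transcript length and the alternatives for relatives and receptors were added after the data were seen.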

Additional observations from a re-analysis of the deposited data

How the results depend on the processing

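No paired analysis was possible because the libraries belong to a single condition. The count of the 10 genes with a more than 2-fold range was 6, and with 1 replicate left out it was between 3 and 5, lowest without replicate 2. It was 8 at a 1.5-fold limit and 6 under the other alternatives. For all detected genes the count was 2631, and it became 8604 without a minimum, 1661 at a mean of at least 100 and 5915 at 1.5-fold, which follows from the genes tested and the limit, and between 802 and 1910 with 1 replicate left out. Requiring a 2-fold difference lowered the differences between libraries from 10, 10 and 9 of the 10 genes to 4, 3 and 5, by construction. Detection was 10 of 10 in every setting tried, including a minimum of 50.

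None of the 20 means recomputed with TMM scaling or equal totals moved by more than 1 SD, and these scalings shifted the median of all detected genes by at most 0.055 on the log2 scale. Leaving out 1 library moved the mean of some genes by over 1.5 times. Without replicate 2 the mean of *Postn* was 297 in place of 776, of *Thbs2* 4042 in place of 7181 and of *Tnxb* 152 in place of 263 normalized counts, and without replicate 1 that of *Spp1* was 18825 in place of 32591. Without division by length 4 ranks changed, *Fn1* to 1, *Sparc* to 3, *Tnc* to 4 and *Spp1* to 5. With the length of the longest coding transcript no rank of the means changed, but the levels per kb did. The mean per kb of *Postn* was then 242 in place of 89.2, and that of *Sparc* 65314 in place of 39658. The order within single libraries was not recomputed with that length. Leaving out replicate 1, 2 or 3 changed 2 ranks each. Among the relatives the count of 5 with a more than 2-fold range fell to 1 without replicate 2, and among the receptors the count of 7 fell to 2 without replicate 2 and to 4 without replicate 1 and was 11 at 1.5-fold. Depth limited *Postn* (94 reads) and *Tnxb* (110 reads) in replicate 3.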
